A study of Homo sapiens with 12 samples.

Results

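The 10 genes described here move glucose into the cell, interconvert pyruvate and lactate, or carry lactate across the plasma membrane. They were taken by symbol from a table of 28278 genes and consist of 6 SLC2A sugar transporters (SLC2A1, SLC2A3, SLC2A6, SLC2A8, SLC2A10 and SLC2A13), 2 SLC16A monocarboxylate transporters (SLC16A1 and SLC16A3) and 2 lactate dehydrogenase genes (LDHA and LDHB). In pools that had evolved under hydroxychloroquine (HCQ, a lysosome-targeting antimalarial that blocks autophagy), SLC2A1, SLC16A3 and LDHA were higher in CCL218 by 2.55-fold, 2.18-fold and 1.92-fold, and each passed the test. In OVCAR3 the same transcripts stood higher by 1.94-fold, 1.75-fold and 2.04-fold, with evolved pools above all controls, but none passed after adjustment over all genes. LDHB and SLC16A1, the counterparts of LDHA and SLC16A3, passed in neither line. In bulk RNA, a change in the share of cells that carry a transcript and a change in RNA per cell cannot be told apart.

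Bulk polyadenylated RNA was sequenced from 12 pools of 2 established human cancer cell lines, labelled OVCAR3 (ovarian) and CCL218 (colorectal), to ask how transcripts of evolved cells differ from those of cells passaged without drug. Each line had 3 HCQ-evolved pools, at passage 15 and after 15 pulses of HCQ lasting 48 h, and 3 control pools at passage 19 that received no HCQ. Evolved cells had then grown for 7 days without drug. The pools were the left (L), middle (M) and right (R) wells of 1 plate per group, so p-values measure the spread between parts of a plate, and passage number, plate and treatment cannot be told apart.

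Glucose enters most cells down its gradient through GLUT proteins, which the SLC2A genes encode, and glycolysis turns it into pyruvate. Lactate dehydrogenase is a tetramer of A subunits (LDHA), commonly linked to making lactate, and B subunits (LDHB), commonly linked to using it. Lactate leaves or enters with a proton through MCT1 (SLC16A1) or MCT4 (SLC16A3), the latter typical of cells that export much lactate. Several of these genes are textbook targets of the hypoxia-inducible factors (HIF), which are often active in carcinomas.

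The libraries held 31147822 to 59965861 counts. Values below are CPM, counts per 1000000 counts of the library, after TMM scaling, which corrects for differences in library composition and whose factors ran from 0.933 to 1.064. In single pools the deviation of a gene from its mean followed transcript length, with both signs present in every group. Rank correlations ran from -0.456 (control CCL218 L) to 0.535 (HCQ-evolved OVCAR3 R). With GC content they were -0.136 to 0.405 in control and -0.289 to 0.077 in evolved pools of OVCAR3. In CCL218 they were -0.149 to 0.382 and -0.317 to 0.056, and control L held the highest GC value in each line. The labels were compared with marker genes. The 10 ovarian markers were mixed in the pools labelled OVCAR3. SOX17, EMX2 and ESR1 were at 0 to 0.0478 CPM and WT1 at 0.0955 to 2.23 CPM, whereas PAX8 was at 6.85 to 13.8 CPM, MUC16 at 12.4 to 48.9, WFDC2 at 11.5 to 40 and MECOM at 23.4 to 50.7. After evolution MUC16 and WFDC2 were higher in OVCAR3 (20 to 48.9 and 35.1 to 40 CPM) than in CCL218 (3.83 to 6.28 and 4.71 to 6.22 CPM). MECOM and MSLN went the other way, at 23.4 to 30.3 and 2.16 to 8.9 CPM in evolved OVCAR3. In evolved CCL218 they were at 46.4 to 55.2 and 89.1 to 134 CPM, and PAX8 and FOLR1 overlapped between the lines. The intestinal epithelial genes VIL1 and LGALS4 were at 189 to 279 and 619 to 796 CPM in OVCAR3 controls. The markers thus did not settle the labelled origin, and OVCAR3 is used below as the name on the libraries. Summed over 10 genes each, ovarian markers were at 99.6 to 130 CPM in OVCAR3 and 143 to 204 CPM in CCL218, where MSLN gave 48.7 to 134 CPM. SOX17 was the 1 marker of the list at 0 in all 4 groups. Summed colorectal markers were at 934 to 1100 CPM in control and 240 to 672 CPM in HCQ-evolved OVCAR3, and at 1300 to 1780 and 1370 to 1420 CPM in CCL218, with KRT20 at or near 0. Fibroblast markers summed to at most 3.53 CPM and leukocyte markers to at most 23.1 CPM. The part of the marker shift in the results below was not tested.

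The upstream sequence of the 3 transcripts that stood higher in both lines is shown because they moved together. The 250 bases before a RefSeq start site (GRCh38.p14) were searched on both strands for ACGTG or GCGTG, the core to which HIF dimers bind. A match reads 5′ to 3′ in capitals, also where it lies on the other strand (CACGT or CACGC), and the core overlaps the E-box CACGTG that MYC family proteins bind. RefSeq lists more than 1 start for LDHA and SLC16A3, and for these the first start whose window held at most 30 exonic bases was taken. This limit passed over the first SLC16A3 window (chr17:82228185-82228434), which held 38 exonic bases and 0 matches, so the SLC16A3 sequence shown depends on it.
LDHA (chr11:18394313-18394562, plus strand): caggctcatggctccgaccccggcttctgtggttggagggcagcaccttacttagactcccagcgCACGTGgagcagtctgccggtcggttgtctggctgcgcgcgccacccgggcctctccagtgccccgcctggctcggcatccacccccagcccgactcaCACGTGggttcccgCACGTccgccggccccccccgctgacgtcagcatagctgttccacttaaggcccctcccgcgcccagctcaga
SLC16A3 (chr17:82228792-82229041, plus strand): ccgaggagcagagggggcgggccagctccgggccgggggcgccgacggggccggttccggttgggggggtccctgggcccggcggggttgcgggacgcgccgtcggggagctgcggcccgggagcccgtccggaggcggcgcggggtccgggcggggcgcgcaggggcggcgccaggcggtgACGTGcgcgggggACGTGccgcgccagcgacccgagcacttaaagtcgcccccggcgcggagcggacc
SLC2A1 (chr1:42958869-42959118, minus strand): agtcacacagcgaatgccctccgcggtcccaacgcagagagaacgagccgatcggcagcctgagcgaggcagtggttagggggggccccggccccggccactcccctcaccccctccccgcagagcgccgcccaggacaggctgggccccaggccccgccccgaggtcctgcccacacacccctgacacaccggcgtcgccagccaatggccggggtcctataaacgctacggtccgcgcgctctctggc
The LDHA window held 5 matches, the first at -185 and the last at -73 relative to the start, of which 4 came from 2 E-boxes, read on both strands, and its other window (chr11:18396101-18396350) held 1 match and no E-box. The SLC16A3 window held 2 matches, at -68 and -55, and its other 4 windows held 0, 0, 3 and 1. The SLC2A1 window held none. Of 35116 such windows 43.2% held at least 1 match, with a mean of 0.76 per window, and 6.3% held an E-box. Among the other members, the windows of SLC2A6, SLC2A13 and SLC2A10 held 3, 2 and 1 matches and those of SLC2A8 and LDHB none. SLC2A3 and SLC16A1 have no full window of 250 bases in the promoter table used here. These are matches of letters and not sites of binding.

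**Figure D1:**
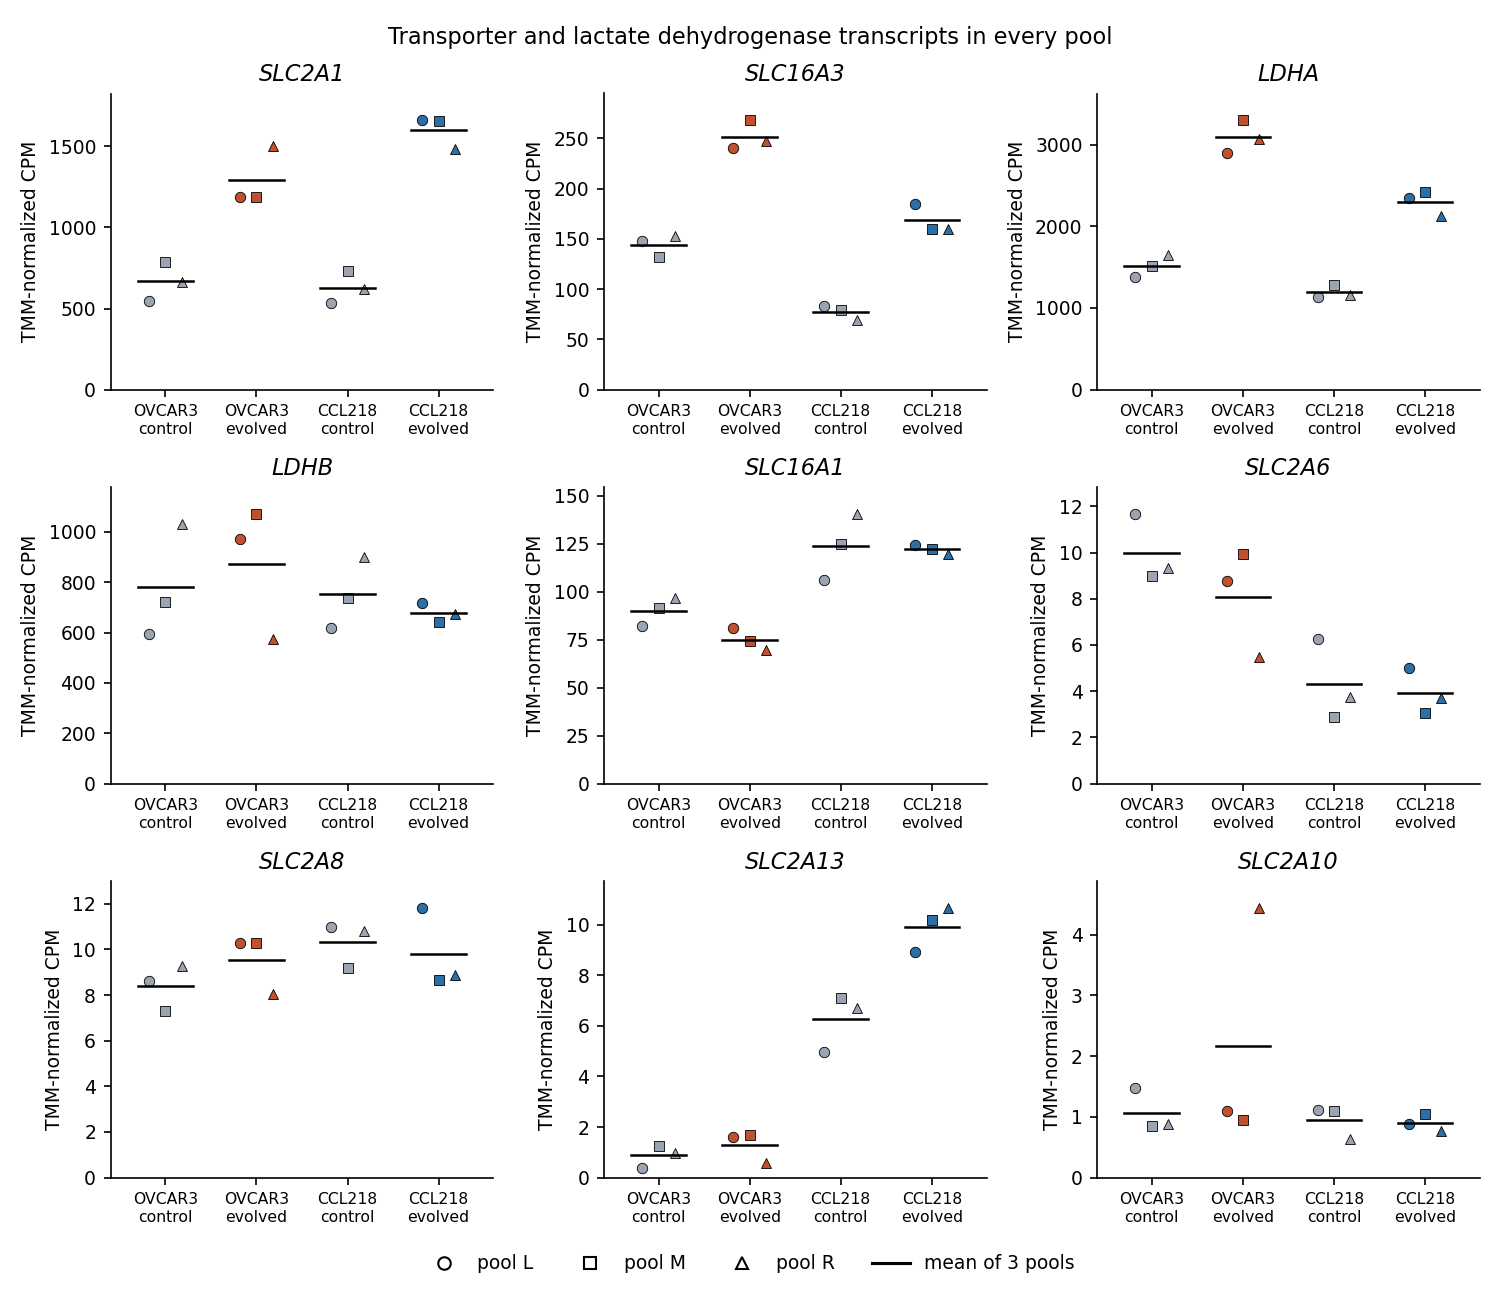
TMM-normalized CPM of 9 members in each of the 12 pools, on linear axes from 0, with 1 panel per gene. Symbols mark pools L, M and R and lines mark the mean of 3 pools. The evolved pools of SLC2A1, SLC16A3 and LDHA lie above their controls in both lines, and pool R of HCQ-evolved OVCAR3 lies apart for LDHB (573.3 CPM) and SLC2A10 (4.43 CPM).

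The most abundant SLC2A transcript was that of SLC2A1, which encodes GLUT1, the basal high-affinity glucose carrier of most proliferating cells (chr1:42925353-42958893, minus strand, GENCODE 44 on hg38). CCL218 pools held it at 532.8, 730.0 and 619.3 CPM in control pools L, M and R and at 1660, 1654 and 1481 CPM in evolved pools. The groups did not overlap, and the lowest evolved pool was above the highest control by more than the spread within either group. The log2 fold change was 1.35 (SE 0.16, n = 3 pools a group, edgeR adjusted p = 0.00553), and without evolved pool M it was 1.33 with an adjusted p of 0.052. In OVCAR3, SLC2A1 was at 549.0, 787.7 and 665.1 CPM in controls and at 1191, 1187 and 1503 CPM after evolution. These groups did not overlap either, and the log2 fold change of 0.96 (SE 0.22) had an edgeR adjusted p of 0.0799. A long noncoding RNA gene on the opposite strand covers 7.5% of the exonic bases of SLC2A1 and shares 14.7% of its longest transcript.

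SLC2A3, the gene of the neuronal-type high-affinity carrier GLUT3 (chr12:7919230-8019007, minus strand), fell short of the filter in both lines and was not tested. It had 0 to 2 counts in the 6 CCL218 pools and 0 to 2 counts in OVCAR3 controls, all below a floor of 3 counts. In HCQ-evolved OVCAR3 it had 0, 8 and 74 counts in pools L, M and R, the last being 1.21 CPM. Only pool R thus held more than a trace, and 25.2% of the longest SLC2A3 transcript is at least 98% identical to its neighbour SLC2A14, so reads can be split between the genes.

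The remaining SLC2A members were low. SLC2A6 encodes GLUT6, a lysosomal membrane protein (chr9:133471094-133479127, minus strand), and SLC2A8 encodes the intracellular carrier GLUT8 (chr9:127397138-127408424, plus strand). SLC2A6 spanned 8.974 to 11.65 CPM in OVCAR3 controls and 5.479 to 9.920 CPM after evolution, and 2.875 to 6.249 and 3.051 to 4.997 CPM in CCL218. SLC2A8 spanned 7.282 to 9.280 and 8.064 to 10.30 CPM in OVCAR3, and 9.196 to 10.97 and 8.639 to 11.80 CPM in CCL218. The pools overlapped in all 4 comparisons, with log2 fold changes between -0.31 and 0.19 and edgeR adjusted p-values of 0.625 to 0.823. For the lysosomal carrier SLC2A6 the SE was 0.27 in OVCAR3 and 0.33 in CCL218. A difference of that size was not detectable with 3 pools a group, and one several times the SE could also miss the threshold. SLC2A1 in OVCAR3, for example, did not pass at 0.96 with an SE of 0.22 (edgeR adjusted p = 0.0799).

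SLC2A13 encodes the proton-coupled myo-inositol transporter HMIT (chr12:39755025-40106089, minus strand). In CCL218 it was at 4.979, 7.120 and 6.711 CPM in controls and at 8.938, 10.20 and 10.65 CPM after evolution, without overlap. The log2 fold change was 0.66 (SE 0.18) with an edgeR adjusted p of 0.0779. With plate position as a replicate block it was 0.67 with an adjusted p of 0.0315, so the call depended on the setting. Of 11 other settings 3 gave a call, namely the block, DESeq2 (adjusted p = 0.0114) and removal of the trend with length and GC content (0.50, adjusted p = 0.0255), and the highest adjusted p was 0.374. With block and trend removal together it did not pass (0.50, adjusted p = 0.0524), and of 6 fits without a single pool it passed in 1, without control L (0.52, adjusted p = 0.021). In OVCAR3, SLC2A13 was at 0.382, 1.269 and 0.974 CPM in controls and at 1.603, 1.681 and 0.5725 CPM after evolution, and these pools overlapped (log2 fold change 0.56, SE 0.55, adjusted p = 0.668). Controls averaged 6.27 CPM in CCL218 and 0.875 CPM in OVCAR3, and the pools of the lines did not overlap, a difference that was not tested.

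SLC2A10, the gene of GLUT10 that is mutated in arterial tortuosity syndrome (chr20:46709649-46736347, plus strand), stayed close to 1 CPM. OVCAR3 pools held it at 1.480, 0.846 and 0.8855 CPM in controls and at 1.102, 0.950 and 4.433 CPM after evolution. Only pool R was high, and the log2 fold change of 1.01 had an SE of 0.63 (edgeR adjusted p = 0.478). In CCL218 controls spanned 0.6285 to 1.115 CPM and evolved pools 0.7736 to 1.049 CPM (log2 fold change -0.07, SE 0.31). Pool R of HCQ-evolved OVCAR3, which held the high values of SLC2A3 and SLC2A10, is the library with the strongest trend toward long transcripts, and the part of that trend in these values was not tested.

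LDHA, the gene of the A subunit (chr11:18394560-18408425, plus strand), had close log2 fold changes in the lines, and no other annotated transcript shared a stretch of at least 100 bases with it at 98% identity. CCL218 pools held it at 1135, 1287 and 1165 CPM in controls and at 2343, 2414 and 2125 CPM after evolution. Every evolved pool exceeded every control by more than the spread within either group. The log2 fold change was 0.94 (SE 0.13, edgeR adjusted p = 0.01), and it stayed between 0.8956 and 1.0035 when single pools were left out. The call itself was lost without control R (adjusted p = 0.0653) or without evolved L, M or R (adjusted p = 0.0708, 0.0931 and 0.058). In OVCAR3, LDHA was at 1378, 1518 and 1648 CPM in controls and at 2899, 3295 and 3073 CPM after evolution. The pools did not overlap, and the log2 fold change of 1.03 (SE 0.20) had an adjusted p of 0.0525. Of 6 fits without a single pool it passed in 1, without evolved pool R (adjusted p = 0.035), and the highest adjusted p was 0.236. Of 11 other settings 6 gave a call, and the highest adjusted p was 0.264, with the replicate block.

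LDHB, the gene of the B subunit (chr12:21635342-21757857, minus strand), overlapped between the groups of each line. In CCL218 it was at 616.9, 738.8 and 901.4 CPM in controls and at 716.9, 642.9 and 674.3 CPM after evolution (log2 fold change -0.15, SE 0.16, edgeR adjusted p = 0.587). In OVCAR3 it was at 595.5, 719.2 and 1029 CPM in controls and at 971.1, 1069 and 573.3 CPM after evolution (log2 fold change 0.16, SE 0.31, adjusted p = 0.854). Pool R held the highest control and the lowest evolved value in OVCAR3. LDHB has the shortest longest transcript of the members (1538 bases), and in OVCAR3 its log2 fold change turned to -0.0096 without control L and to -0.0155 without evolved M. An overlapping protein-coding gene model on the same strand shares 33.4% of its exonic bases and 62.1% of its longest transcript, so its level is uncertain.

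The lactate exporter SLC16A3 (chr17:82217934-82261129, plus strand) had the smallest SE of the 3 transcripts in each line. CCL218 pools held it at 82.9, 78.8 and 69.8 CPM in controls and at 185.1, 160.0 and 160.3 CPM after evolution. The groups stood apart with a log2 fold change of 1.13 (SE 0.13, edgeR adjusted p = 0.00547), and this call held without any single pool (adjusted p at most 0.0439). OVCAR3 pools held it at 147.7, 131.6 and 153.0 CPM in controls and at 240.1, 267.8 and 247.2 CPM after evolution. The groups again stood apart, and the log2 fold change of 0.80 (SE 0.16) had an adjusted p of 0.0521. Of 6 fits without a single pool it passed in 1, without evolved pool R (adjusted p = 0.0338), and the highest adjusted p was 0.231. Of 11 other settings 3 gave a call, and the highest adjusted p was 0.237, with the replicate block. Exons of CSNK1D on the opposite strand cover 5.2% of its exonic bases.

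SLC16A1, whose product MCT1 carries lactate in either direction (chr1:112911847-112957593, minus strand), did not pass in either line. In OVCAR3 it was at 82.11, 91.70 and 96.55 CPM in controls and at 81.01, 74.21 and 69.56 CPM after evolution. All evolved pools lay below all controls, by a small margin, with a log2 fold change of -0.27 (SE 0.17, edgeR adjusted p = 0.489). In CCL218 it was at 106.3, 124.8 and 140.3 CPM in controls and at 124.3, 122.3 and 119.8 CPM after evolution. Here the evolved pools lay within the range of the controls (log2 fold change -0.02, SE 0.14, adjusted p = 0.938).

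**Figure D2:**
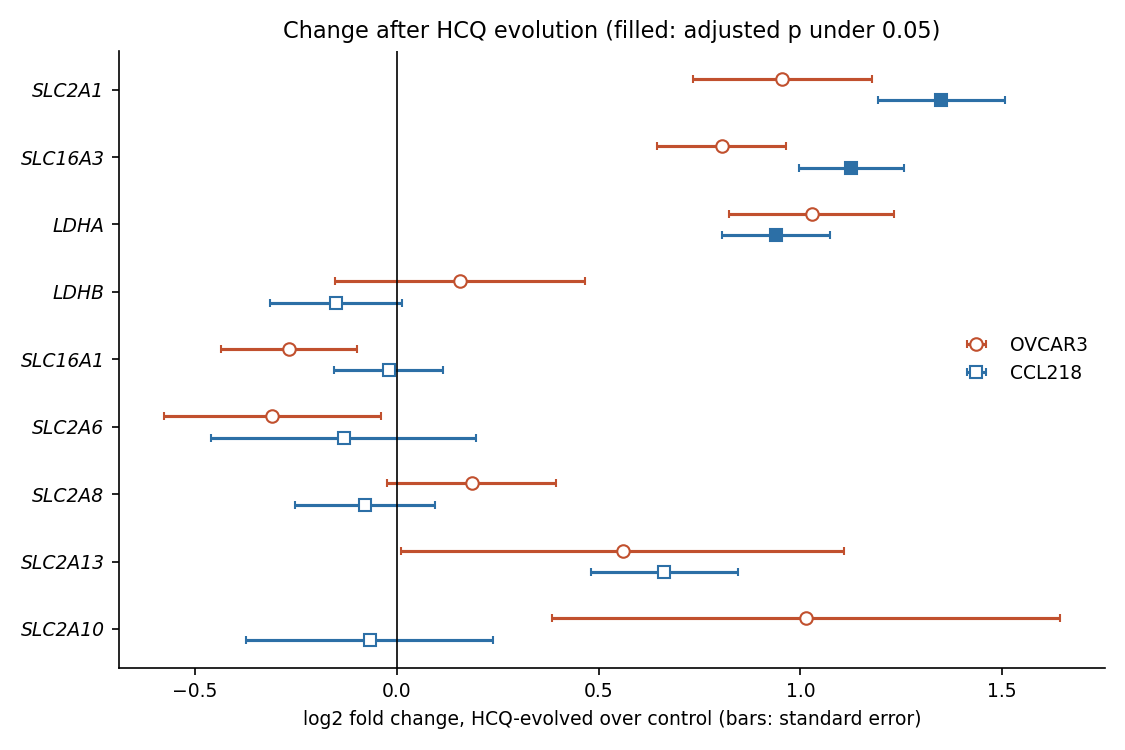
Log2 fold change of each tested member, HCQ-evolved over control, with the standard error from edgeR. Circles are OVCAR3, squares are CCL218, and filled symbols passed at an adjusted p under 0.05. Only SLC2A1 (1.35), SLC16A3 (1.13) and LDHA (0.94) in CCL218 are filled, and their OVCAR3 values are 0.96, 0.80 and 1.03.

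By count, 9 of the 10 members could be tested in each line. In CCL218, 3 were called higher, where 3.82% of all 12241 tested genes were, and 0 were called lower (2.64% of all genes). With plate position as a replicate block, an alternative whose pairing was not settled, 4 were called higher and 0 lower. Of all genes, 7.82% and 6.43% were called higher and lower with the block. By edgeR 4 had an unadjusted p under 0.05, all higher, and DESeq2 and limma voom called 4 and 3 higher and 0 lower. In OVCAR3, 0 were called higher and 0 lower, where 0.647% and 1.21% of 12204 tested genes were. At an unadjusted p under 0.05 there were 3 by edgeR, all higher, and DESeq2 called 3 and limma voom 1. Pools stood apart and higher for 4 members in CCL218 (18.5% of all genes) and 3 in OVCAR3 (13.5%), and apart and lower for 0 and 1 (17.4% and 12.3%). The median log2 fold change over tested members was -0.02 in CCL218 and 0.56 in OVCAR3, against -0.02 and 0.02 over all tested genes. Positive changes were seen in 4 and 7 of 9 members, where 48.3% and 51.6% of all tested genes had them. In CCL218 the count fell to 1 without evolved pool M, where SLC16A3 alone passed, and was 4 without control pool L. In OVCAR3 it was 2 without evolved pool R (SLC16A3 and LDHA), and it was 3 both in a fit of all 12 pools and after removal of the trend with length and GC content (SLC2A1, SLC16A3 and LDHA each time).

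Whether the change of a member differed between the lines was tested by the interaction term of an edgeR fit of all 12 pools. None of the 9 members passed, where 0.872% of 12613 genes did, and none had an unadjusted p under 0.05. DESeq2 and limma voom also called 0. The difference, CCL218 minus OVCAR3, was 0.34 for SLC16A3 (SE 0.18, adjusted p = 0.668), 0.41 for SLC2A1 (SE 0.25, adjusted p = 0.77) and -0.07 for LDHA (SE 0.20, adjusted p = 0.999). The calls in CCL218 alone are therefore not shown to be particular to that line.

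The 2 pairs of related genes were also set against each other within each library, where library scaling cancels. The count ratio of LDHA to LDHB was 1.839, 1.742 and 1.292 in CCL218 control pools L, M and R and 3.269, 3.754 and 3.151 in evolved pools. In OVCAR3 it was 2.315, 2.111 and 1.602 in controls and 2.986, 3.082 and 5.36 after evolution. Evolved pools were above all controls in both lines, by 2.11-fold (log2 difference 1.07, SE 0.18) and 1.85-fold (0.89, SE 0.32). Without evolved pool R, which had the high value of 5.36, the log2 difference in OVCAR3 was 0.61. The uncertain level of LDHB also bears on these ratios.

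The count ratio of SLC16A3 to SLC16A1 was 0.780, 0.631 and 0.497 in CCL218 controls and 1.49, 1.308 and 1.337 after evolution. In OVCAR3 it was 1.799, 1.435 and 1.585 in controls and 2.964, 3.609 and 3.553 after evolution. The groups stood apart in both lines, with log2 differences of 1.14 (SE 0.20) and 1.07 (SE 0.13), or 2.20-fold and 2.10-fold. These ratios are given as a description with no test, and no ratio was formed for SLC2A3 to SLC2A1 because SLC2A3 was at 0 in most pools.

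**Figure D3:**
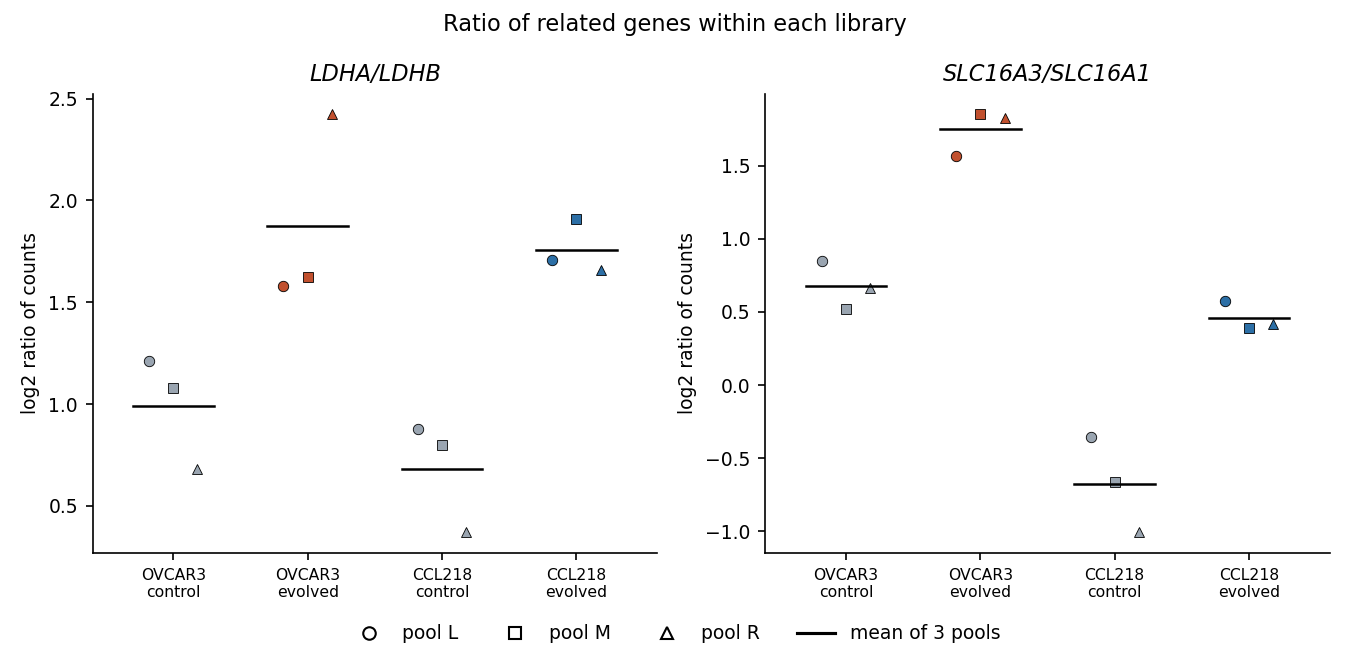
Log2 ratio of counts in each library, LDHA over LDHB and SLC16A3 over SLC16A1, for pools L, M and R of each group with the mean of 3 pools as a line. Evolved pools lie above controls in all 4 comparisons, by 0.89 and 1.07 for LDHA over LDHB and by 1.07 and 1.14 for SLC16A3 over SLC16A1 in OVCAR3 and CCL218.

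Levels of different genes were compared only per length, as CPM per kb of annotated exon. In controls LDHB and LDHA led with overlapping ranges, at 261.9 ± 74.8 and 251.4 ± 22.4 CPM per kb in OVCAR3 and 252.2 ± 47.8 and 198.4 ± 13.3 in CCL218 (SD, n = 3). After evolution LDHA stood alone at the top, at 512.6 ± 32.9 CPM per kb in OVCAR3 and 380.7 ± 25 in CCL218. SLC2A1 was next after both lactate dehydrogenases in controls, at 100.9 ± 18.1 CPM per kb in OVCAR3 and 94.9 ± 14.9 in CCL218, clear of its neighbours in the order. After evolution it reached 195.6 ± 27.4 and 241.6 ± 15.4 CPM per kb, and its range overlapped that of LDHB in both lines. With the longest transcript as length, LDHA exceeded LDHB in controls too, by 1.33 in OVCAR3 and 1.09 in CCL218 as a ratio of means, so the order of the dehydrogenases depends on the annotation.

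The monocarboxylate transporters came next. In CCL218 controls SLC16A1 was at 19.5 ± 2.68 and SLC16A3 at 8.36 ± 0.725 CPM per kb, without overlap, and after evolution their ranges overlapped at 19.3 ± 0.352 and 18.2 ± 1.56. With the longest transcript as length the order in evolved CCL218 turned, with SLC16A3 at 34.9 and SLC16A1 at 27.9 CPM per kb. In OVCAR3 controls they overlapped at 14.2 ± 1.16 and 15.6 ± 1.21 CPM per kb, and after evolution they stood apart at 11.8 ± 0.907 and 27.3 ± 1.56. SLC2A6 and SLC2A8 followed at 1.11 to 2.83 CPM per kb as group means. SLC2A10 and SLC2A13 were lower still, at 0.0873 to 0.991 CPM per kb, and SLC2A3 was last. The order of these also depended on the length used, since by the longest transcript SLC2A13 (1.375) stood above SLC2A6 (1.145) in evolved CCL218, and SLC2A8 (3.909) above SLC2A6 (2.921) in OVCAR3 controls.

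**Figure D4:**
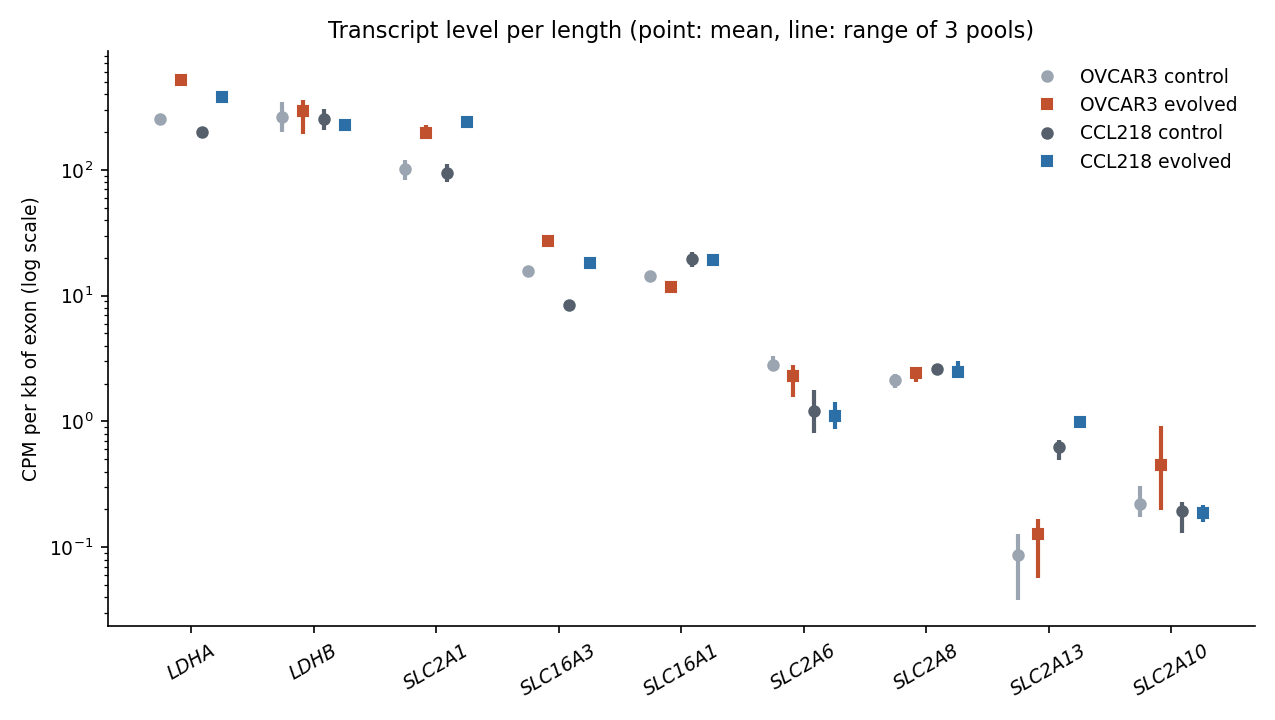
Level of 9 members as CPM per kb of exon on a log axis, with the mean as a point and the range of 3 pools as a line for each of the 4 groups. LDHA, LDHB and SLC2A1 are highest, and LDHA lies near LDHB in controls and at 512.6 and 380.7 CPM per kb in evolved OVCAR3 and CCL218.

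Most other genes of the same families fell under the filter of 1 CPM in 3 libraries, which does not mean that they were absent. SLC16A10 had 6 to 65 counts, SLC16A8 6 to 30 and SLC2A9 5 to 52, above the floor of 3 counts in every pool. Of 8 further SLC2A genes only SLC2A12 could be tested, with log2 fold changes of 0.43 in OVCAR3 (SE 0.56) and 0.70 in CCL218 (SE 0.29), and neither passed. Of 12 further SLC16A genes 4 could be tested in OVCAR3 and 3 in CCL218, and none was called. SLC16A5 (MCT6), the most abundant in counts, was at 90.9 ± 6.26 and 95.9 ± 2.09 CPM in OVCAR3 and at 99.9 ± 10.9 and 90.2 ± 4.61 CPM in CCL218. SLC16A4 had log2 fold changes of 0.30 in OVCAR3 (SE 0.37, edgeR adjusted p = 0.746) and 0.40 in CCL218 (SE 0.17, adjusted p = 0.204).

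SLC16A7, the gene of the high-affinity lactate and pyruvate carrier MCT2, was near the limit of the test. OVCAR3 pools held it at 0.764, 2.236 and 1.098 CPM in controls and at 2.004, 1.608 and 5.01 CPM after evolution, with overlap. In CCL218, where it was too low to be tested alone, it was at 0.830, 1.78 and 1.03 CPM in controls and at 0.302, 0.267 and 0.317 CPM after evolution, without overlap. The interaction was -3.10 (SE 0.73) and did not pass (edgeR adjusted p = 0.0877). Of 4 further lactate dehydrogenase genes only LDHD, which oxidises D-lactate in mitochondria, could be tested, and it passed in neither line (-0.20 in OVCAR3, 0.71 in CCL218 with an adjusted p of 0.149). In CCL218 it passed without control L (0.97, adjusted p = 0.0123) and after removal of the trend with length and GC content (0.92, adjusted p = 0.0236).

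A sodium-coupled glucose transporter had a larger log2 fold change in CCL218 than any member. SLC5A1, the gene of the intestinal sodium-glucose cotransporter SGLT1, was at 25.2, 32.4 and 30.4 CPM in CCL218 controls and at 101, 118 and 115 CPM after evolution. It rose by a log2 fold change of 1.92 (SE 0.15, edgeR adjusted p = 0.00127). In OVCAR3 it was at 27.6, 30.6 and 31.5 CPM in controls and at 46.6, 46.5 and 19.7 CPM after evolution, so that pool R lay below the controls and the others above (log2 fold change 0.33, SE 0.33, adjusted p = 0.675). The interaction for SLC5A1 was 1.61 (SE 0.39, adjusted p = 0.0954). SLC5A9, a mannose and glucose cotransporter, had a log2 fold change of 1.05 in CCL218 (SE 0.33, adjusted p = 0.105, or 1.14 and 0.0299 with the replicate block) and of -0.23 in OVCAR3 (SE 0.54), and 2 further SLC5A genes were too low to be tested.

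Regulators of transporter surface level were led by TXNIP, an arrestin-family protein that is induced by glucose and promotes the uptake of GLUT1 into the cell. TXNIP was at 311, 445 and 429 CPM in CCL218 controls and at 1132, 1196 and 987 CPM after evolution. It rose by a log2 fold change of 1.48 (SE 0.18, edgeR adjusted p = 0.00596, or 0.0528 without evolved pool M). Its relative ARRDC4 rose by 0.79 (SE 0.16, adjusted p = 0.0336), a call that was lost without control R or any evolved pool of CCL218 (adjusted p = 0.12 to 0.197) and with total counts as the only scaling (0.0546). In OVCAR3, TXNIP was at 258, 424 and 416 CPM in controls and at 529, 598 and 616 CPM after evolution, without overlap (0.67, SE 0.23, adjusted p = 0.212), and ARRDC4 was at -0.02. BSG encodes basigin, the chaperone that brings MCT1 and MCT4 to the membrane, and passed in neither line (-0.30 and -0.45). In each line control pool L held the highest BSG value, at 1026 CPM in OVCAR3 and 1090 CPM in CCL218, and without it the log2 fold changes were 0.06 and 0.05. The alternative chaperone gene EMB had 0 counts in all pools.

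Between glucose uptake and lactate lie the glycolytic enzymes, of which all 15 were tested. All had positive log2 fold changes in both lines, as did 48.3% of all tested genes in CCL218 and 51.6% in OVCAR3. In CCL218, 10 were called higher and 0 lower, where 3.82% and 2.64% of all tested genes were. In OVCAR3 these were 2 and 0, where 0.647% and 1.21% of all tested genes were. The median was 0.84 in each line. ENO2, the neuronal-type enolase, passed in both lines (2.23 in CCL218, 1.81 in OVCAR3, SE 0.15 and 0.19), and so did ALDOC, the brain-type aldolase (2.16 and 1.48, SE 0.19 and 0.22). In OVCAR3 the ALDOC call was lost with the replicate block (adjusted p = 0.0653). Without any pool but evolved R the ALDOC call was lost too (adjusted p = 0.0804 to 0.161), and that of ENO2 without any control (adjusted p = 0.0557 to 0.105). GAPDH moved least in the list together with PFKM, at 0.24 (SE 0.25) in CCL218 and 0.07 (SE 0.28) in OVCAR3. Control pool L held the highest GAPDH value in each line, at 5854 CPM in OVCAR3 and 4935 CPM in CCL218. The other controls were at 3399 and 3798 CPM in OVCAR3 and at 2767 and 2734 CPM in CCL218. Evolved pools spanned 4035 to 5002 and 3789 to 4376 CPM, above those other controls and below pool L.

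Genes that govern pyruvate entry into mitochondria were split in direction. Of 13 tested, 2 were called higher in CCL218 and 0 in OVCAR3, where 3.82% and 0.647% of all tested genes were. In both lines 0 were called lower, where 2.64% and 1.21% of all tested genes were, and medians were -0.01 and 0.05. The called genes were PDK1 (1.14, SE 0.21, adjusted p = 0.0251) and PDK3 (1.24, SE 0.25, adjusted p = 0.0323), kinases that switch off pyruvate dehydrogenase. The other such kinases of the list, PDK2 and PDK4, went the other way and passed in neither line. They were at -0.08 and -0.32 in CCL218 and at -0.23 and -0.52 in OVCAR3. The calls of PDK1 and PDK3 were lost without control R or any evolved pool of CCL218 (adjusted p = 0.098 to 0.155). In OVCAR3, PDK1 was at 1.08 (SE 0.26, adjusted p = 0.0896) and PDK3 at 1.36 (SE 0.35, adjusted p = 0.101), each with evolved pools above controls. Both passed in a fit of all 12 pools (adjusted p = 0.0186 and 0.0237), and neither passed in any fit without a single pool.

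Of 18 genes of the HIF pathway and its known targets, 17 were tested in CCL218 and 16 in OVCAR3. In CCL218, 12 were called higher and 0 lower, where 3.82% and 2.64% of all tested genes were, with a median of 1.21. In OVCAR3 these were 4 and 0, where 0.647% and 1.21% of all tested genes were, with a median of 0.74. Those that passed in both lines were EGLN3, a HIF prolyl hydroxylase (2.19 and 1.54, SE 0.18 and 0.17), P4HA1 (2.28 and 1.65, SE 0.24 and 0.23) and P4HA2 (2.34 and 1.35, SE 0.13 and 0.18), collagen prolyl hydroxylases, and BNIP3L, a mitophagy receptor (1.27 and 0.92, SE 0.12 and 0.17). In OVCAR3 the replicate block took EGLN3, P4HA2 and BNIP3L above 0.05 (adjusted p = 0.0519, 0.074 and 0.163), and with total counts as the only scaling BNIP3L was at 0.0544. Without single OVCAR3 pools, P4HA1, P4HA2 and BNIP3L passed only in the fit without evolved R, and EGLN3 only in those without evolved L or R. HIF1A itself was at 0.24 (SE 0.36) and 0.61 (SE 0.73). MYC, another regulator of LDHA and SLC2A1, was at -0.36 (SE 0.36) in CCL218 and -0.68 (SE 0.32) in OVCAR3, and passed in neither line. Without control pool L of CCL218 it was at -0.71 and passed (adjusted p = 0.000523).

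**Figure D5:**
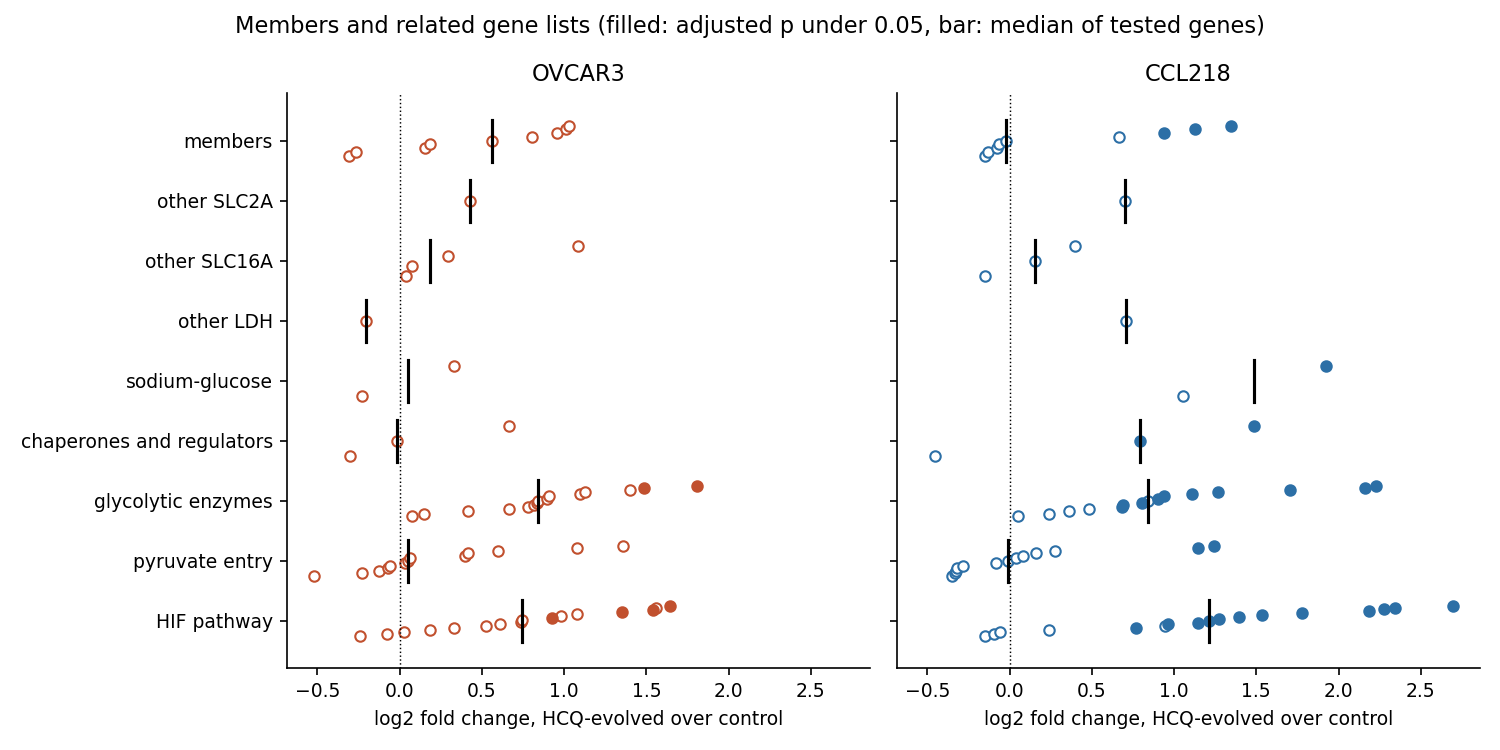
Log2 fold changes of the members and of 8 related gene lists in OVCAR3 and CCL218, with 1 point per tested gene, filled where the adjusted p was under 0.05, and a bar at the list median. Glycolytic enzymes lie right of 0 throughout with medians of 0.84 in both lines, HIF pathway medians are 0.74 and 1.21, and pyruvate entry genes centre on 0.

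Across the 12 pools, the transcripts most like each of the 3 members with the smallest p were sought among 11944 genes tested in both lines, by Pearson's r of log2 CPM, as a description only, since pools share their group. For SLC2A1 they were EGLN1 (r = 0.992), VEGFA (0.983), ULK1 (0.981), P4HA1 (0.979) and PFKP (0.978). For SLC16A3 they were DDIT4 (0.979), PKM (0.975), KCTD11 (0.971), PTK6 (0.971) and ADAM8 (0.966). For LDHA they were ADORA2B (0.986), CDKN2C (0.984), CDC25C (0.981), DDIT4 (0.98) and RHBDL2 (0.98). DDIT4, a stress-induced inhibitor of mTORC1, was the name that the SLC16A3 and LDHA lists shared.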

How the data were processed

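Per the labels and the study's methods, the authors aligned the reads of each pool to hg38 with STAR, removed duplicates with RmDup and deposited whole-number counts per gene symbol from featureCounts; versions and strand settings are not given in the sources used here. Of entries of 1 to 4 counts, 78.9% were even, so mates may have been counted separately. All columns were mapped to samples. The members and lists were chosen with earlier results of these data known. Each line was fitted alone with edgeR 4.0.16 (R 4.3.3), by the robust quasi-likelihood test on TMM-scaled counts of genes with a CPM of at least 1 in at least 3 libraries, with Benjamini-Hochberg adjustment over all genes tested and a threshold of 0.05. A gene was called where it passed. An SE is the log2 fold change divided by the root of F. The interaction was tested in a fit of 12 pools. The code was checked on simulated counts. DESeq2 1.42.0, limma 3.58.1 (voom) and other settings served as alternatives. After removal of group means, control and evolved pools of the same plate position correlated across genes at 0.594 (L), 0.332 (M) and 0.248 (R) in CCL218, and at 0.467, -0.744 and -0.543 in OVCAR3. In CCL218, however, control M correlated more with evolved R (0.538) than with evolved M, and control R correlated at 0.164 with evolved M. In CCL218 only control L and evolved L correlated most with each other, and both had negative rank correlations with transcript length (-0.456 and -0.222). The part of the length and GC trends in these correlations was not tested, so pairing by plate position was not settled. Fits with the block are given as an alternative. All values come from the fit without a block unless the block is named. Named are all members and, of each list, the 2 genes with the smallest p in each line and any that passed in both. GAPDH, PFKM, HIF1A, PDK2 and PDK4 were named after their values were seen and were not followed through the other settings. Lengths and positions came from GENCODE 44, which held 25763 of the 28278 symbols, shared stretches from blastn 2.17.0, and upstream sequences from RefSeq.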

Additional observations from a re-analysis of the deposited data

Results flagged for a closer look

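P4HA2, a collagen prolyl hydroxylase and known HIF target, was the 1 named gene whose change differed between the lines by the interaction test. Its log2 fold change was 1.01 larger in CCL218 than in OVCAR3 (SE 0.20, edgeR adjusted p = 0.0435), with control and evolved pools at 57.48 to 63.3 and 275.5 to 338.5 CPM in CCL218 and at 74.95 to 94.92 and 187.7 to 231.3 CPM in OVCAR3. It was higher in 3 of 3 evolved pools of each line. The adjusted p ran from 0.0346 to 0.153 when single pools were left out, passing only without evolved OVCAR3 pool R, and from 8.87e-05 to 0.228 under the other settings, the highest with the replicate block.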

How the results depend on the processing

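The 3 pools of a group shared 1 plate, SLC2A3 was too low to be tested, and small changes were not detectable at this number of pools. In OVCAR3 the number of members called higher was 0 and became 1 with total counts only, 2 with no filter on low counts, 3 by DESeq2's Wald test, 1 by limma voom, 3 in a fit of all 12 pools and 3 with the length and GC trend removed. It was 0 to 2 without single pools. In CCL218 it was 3, and 1 to 4 without single pools. With the replicate block, plate position took the count to 4 in CCL218 and left 0 in OVCAR3. Members called lower, and members that differed between lines, were 0 under every setting run. The cause of these shifts was not tested. Over all genes, calls of higher and lower in OVCAR3 (79 and 148) became 243 and 306 with no filter, 542 and 563 by DESeq2, 558 and 607 with all 12 pools, 17 and 64 with the block, 424 and 382 with the length and GC trend removed, 139 higher with both, and 86 lower at a CPM of 5. In CCL218 (468 and 323) they became 1104 and 1068 by DESeq2, 957 and 787 with the block, 1113 and 857 with the trend removed and 1140 and 876 with both. Interaction calls (110) became 69 at a CPM of 5, 463 by DESeq2, 35 with the block and 320 with the trend removed. Without single pools they were 0 to 233 higher and 3 to 324 lower in OVCAR3, 72 to 1646 and 30 to 1401 in CCL218, and 38 to 212 in the interaction.

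Among the members and named genes, the values whose sign turned passed neither before nor after. In CCL218, SLC16A1 was at 0.0115 with no filter, SLC2A6 at 0.0137 and SLC2A8 at 0.0666 with the trend removed, and these were at 0.0288 and 0.0759 and SLC16A5 at 0.0024 with trend and block. ARRDC4 in OVCAR3 was at 0.0192 with no filter. Without single pools the log2 fold changes in OVCAR3 were -0.0155 to 0.40 for LDHB, -0.12 to 0.0969 for ARRDC4, -0.50 to 0.0565 for BSG, -0.0332 to 0.61 for SLC16A4, -0.19 to 1.11 for SLC2A12, -0.37 to 0.0064 for LDHD and -0.60 to 0.23 for SLC5A9. In CCL218 they were -0.13 to 0.0757 for SLC16A1, -0.35 to 0.23 for SLC2A6, -0.23 to 0.0139 for SLC2A8, -0.66 to 0.0517 for BSG and -0.30 to 0.0363 for SLC2A10. Interactions were -0.25 to 0.46 for SLC2A13, -0.0252 to 0.57 for SLC2A6 and -1.39 to 0.0089 for SLC2A10.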
